A study of Mus musculus with 15 samples.

Results

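The genes described here are 10 murine noncoding host genes of small nucleolar RNAs (snoRNAs): Snhg1, Snhg12, Zfas1, Gas5, 2410006H16Rik, Snhg3, Snhg5, Snhg6, Snhg8 and Snhg15, out of 55291 genes in the count tables. They were chosen by name as hosts higher under 6-diazo-5-oxo-L-norleucine (DON) or without glutamine (Gln) than in control cells of this study. This held for 9 of them, and Snhg3 could not be compared. Because of this choice, the values over control are given as a description with no test. Of the 10 members, 9 had reads in all 15 libraries, and Snhg3 had none in any culture library. The samples were 5 groups of 3, all from HY19636, 1 primary line of murine pancreatic ductal adenocarcinoma (PDAC) with mutant p53, described in the methods as carrying a conditional p53 allele recombined by a pancreatic Cre. The culture groups were control cells, cells given DON, a Gln analog that inactivates Gln-using enzymes, at 25 µM for 24 h, and cells kept in medium without Gln for 24 h. The tumors had been grown from the same cells in the pancreas of female C57BL/6J mice of 8 to 10 weeks, which were then given vehicle or DRP-104, a pro-drug of DON, at 3 mg per kg by daily injection in 2 cycles of 5 days on and 2 days off. Dosing began 7 days after surgery, and tumors were collected 21 days after transplantation. RNA was read from whole cultures or whole tumors. In such bulk RNA, fewer cells of a type and less RNA per cell cannot be told apart.

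Most mammalian snoRNAs are cut out of introns of longer host transcripts and then guide 2′-O-methylation (box C/D snoRNAs) or pseudouridylation (box H/ACA snoRNAs) of ribosomal RNA. The spliced exons of a noncoding host carry only short reading frames. Such RNAs are known to be engaged by ribosomes and removed by nonsense-mediated decay, a pathway that needs translation, and Gas5 is the textbook host that accumulates when growth or translation stops. Translation itself was not measured in these libraries. Another trait known for many hosts is a start made of pyrimidines (the 5′ terminal oligopyrimidine start of ribosomal protein genes), which links their use to nutrient signaling.

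The name "host" was checked against the annotation. In GENCODE M21 (GRCm38), 10 of 10 members enclosed at least 1 annotated snoRNA gene on their own strand, 34 in all. Gas5 (chr1:161034422-161038539, plus strand) enclosed 9 and Snhg1 (chr19:8723475-8726443, plus strand) 8. Snhg12 (chr4:132308623-132311024, plus strand) enclosed 4, among them Snora44 and Snora61. Zfas1 (chr2:167062934-167065862, plus strand) enclosed 3 including Snord12, and 2410006H16Rik (chr11:62602877-62604807, plus strand) enclosed Snord49a, Snord49b and Snord65. Snhg5 (chr9:88521050-88522929, minus strand) held Snord50a and Snord50b, and Snhg3 (chr4:132348014-132353686, minus strand) held Snora73a and Snora73b. Snhg6 (chr1:9941959-9944118, minus strand), Snhg8 (chr3:123507552-123508404, minus strand) and Snhg15 (chr11:6525591-6528760, minus strand) held 1 each: Snord87, Snora24 and Snora9. The members had 1 to 25 annotated transcripts, and 5 of the 34 snoRNA genes overlapped no exon of any of them.

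Snord87 of Snhg6 and the 3 snoRNAs of 2410006H16Rik lie wholly in introns and had reads assigned to them. Snord87 had at most 5 reads in a library, and the 3 of 2410006H16Rik are shown. Their sequences are from GENCODE M21, plus strand of chromosome 11, with box C (TGATGA) and the last box D (CTGA) in capitals. Snord49b lies at chr11:62603079-62603150, Snord49a at chr11:62603450-62603521 and Snord65 at chr11:62604515-62604586, and each is 72 bases long.
Snord49b: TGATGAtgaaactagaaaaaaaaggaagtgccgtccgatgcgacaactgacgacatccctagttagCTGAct
Snord49a: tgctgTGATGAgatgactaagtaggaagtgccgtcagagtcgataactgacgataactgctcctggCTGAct
Snord65: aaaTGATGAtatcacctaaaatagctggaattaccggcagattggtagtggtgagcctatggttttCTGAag

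RefSeq windows of 300 bases around annotated starts (GRCm38.p6, 250 before and 50 after) were at hand for 9 members, with a pair of starts for Gas5 and none for Snhg6. An unbroken run of at least 6 pyrimidines touching the region from 10 bases before to 20 bases after the start was found for 6 of the 9 members, in 6 of their 10 windows, against 36.3% of all 32851 windows. The 50 bases from 20 before the start are shown for these 6 members, and for Zfas1 and Snhg15, which had no such run. Snhg3 and the upstream start of Gas5 had none either and are not shown. In Snhg1 and Snhg5 the run began after the annotated start, at bases 5 and 8 of the transcript. Capitals mark the run. The stretches are chr19:8723467-8723516 (Snhg1, plus), chr4:132308658-132308707 (Snhg12, plus), chr1:161035146-161035195 (Gas5, downstream start, plus), chr11:62602857-62602906 (2410006H16Rik, plus), chr9:88522868-88522917 (Snhg5, minus), chr3:123508307-123508356 (Snhg8, minus), chr2:167062914-167062963 (Zfas1, plus) and chr11:6528731-6528780 (Snhg15, minus).
Snhg1: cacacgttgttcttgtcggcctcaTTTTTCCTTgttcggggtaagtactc
Snhg12: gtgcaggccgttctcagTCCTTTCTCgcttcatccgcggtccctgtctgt
Gas5: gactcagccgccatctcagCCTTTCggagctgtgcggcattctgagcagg
2410006H16Rik: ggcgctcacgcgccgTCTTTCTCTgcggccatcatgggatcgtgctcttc
Snhg5: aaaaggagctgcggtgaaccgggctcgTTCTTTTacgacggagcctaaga
Snhg8: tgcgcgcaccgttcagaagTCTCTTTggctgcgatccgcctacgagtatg
Zfas1: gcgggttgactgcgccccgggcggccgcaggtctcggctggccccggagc
Snhg15: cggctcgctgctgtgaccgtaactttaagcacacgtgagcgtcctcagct

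A pair of motifs bound by factors of amino acid stress and growth was also searched for on both strands of the 300 bases. TGATGNAA, the core of the element read by ATF4, was in 0 of the 10 member windows and in 3.97% of all windows, and CACGTG, the E-box bound by Myc and related factors, was in 1 (that of Snhg15) and in 7.15% of all windows. These are matches of letters in a short window and say nothing of what binds there.

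Depth was 25224177 to 48155949 gene-assigned reads in the culture libraries and 16339957 to 20687784 in the tumors. Levels are normalized counts (reads divided by 1 size factor per library). For the 3 culture groups they are given on 1 scale over the 9 libraries, and folds over control come from each deposited table's own scale, from which the joint scale moved no member by more than 0.023 (log2). In culture the summed fibroblast markers were at 0 to 26.4 normalized counts, and the 6 epithelial markers were present in every library. Fewer cycling and epithelial transcripts went with both treatments. Under DON 5 of 6 proliferation genes and 6 of 6 epithelial genes fell, and 6 of 6 of each fell without Gln (limma, adjusted p-value under 0.05). By the same measure 34.7% of all genes tested fell under DON and 34.9% without Gln. The 6 leukocyte markers summed to 63.6 to 99.9 normalized counts in control cells, 816 to 866 under DON and 22.7 to 42.8 without Gln, most of it Cd68, a lysosomal protein (log2 3.66 ± 0.19 and -1.11 ± 0.32 over control, adjusted p = 1.05e-09 and 0.00784). The part of these genes in the members' values was not tested.

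In control cells the 9 measured members together took 0.0333% ± 0.0043 of all gene-assigned reads (SD, n = 3). Under DON this share was 0.390% ± 0.029 and without Gln 0.256% ± 0.0049, that is 11.7 and 7.68 times the control share. Every DON library (0.367 to 0.423%) and every Gln-free library (0.250 to 0.259%) lay above every control library (0.0283 to 0.0361%). Over all genes tested, 35.3% were higher in every DON library than in every control library and 36.4% in every Gln-free library, and 33.3% and 34.5% were called higher (34.7% and 34.9% lower), where called means a limma adjusted p-value under 0.05. The comparisons with control share the same 3 control libraries, so their values are set side by side only. These shares are printed as background only, because the members were chosen on the same contrasts. The median member was 8.45-fold higher under DON and 6.60-fold higher without Gln (log2 3.08 and 2.72, against 0.02 and 0.01 for the median of all genes).

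**Figure D1:**
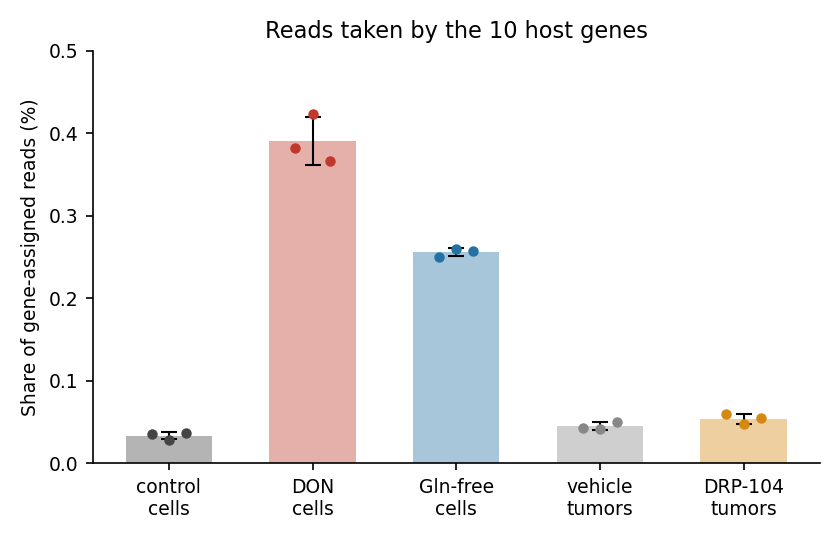
Share of gene-assigned reads (percent, y axis) taken by the 10 host genes in each of the 15 libraries (points), with group means (bars) and SD (error bars, n = 3). DON and Gln-free cells stand at 0.390% and 0.256%, and control cells and both tumor groups lie under 0.06%.

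Snhg1 had the largest fold of the members. Its levels were 842, 743 and 1072 normalized counts in control cells, 25021, 29261 and 23219 under DON and 15608, 14242 and 13990 without Gln. The 3 groups did not overlap, and DON cells were 29.1-fold above control (log2 4.86 ± 0.13 SE) and Gln-free cells 16.9-fold (4.08 ± 0.12). This placed Snhg1 24th from the top of 13556 genes under DON and 24th of 13390 without Gln. Slc3a2, the heavy chain of several amino acid transporters, starts 106 bases away on the opposite strand. It too was called higher, by 1.83 ± 0.10 under DON and 1.02 ± 0.09 without Gln on the log2 scale (limma, adjusted p = 1.58e-09 and 3.92e-07).

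Snhg12, a host of H/ACA and C/D snoRNAs, went from 374, 320 and 402 normalized counts in control cells to 7135, 8087 and 7107 under DON and to 4533, 4385 and 4382 without Gln. The folds were 20.2 and 12.3. 2410006H16Rik was at 2117, 1864 and 1726 in control cells, at 29694, 31845 and 27469 under DON and at 13992, 16115 and 16078 without Gln. It was the most abundant member per length in all 5 groups, and its folds were 15.5 and 8.23.

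Zfas1, transcribed away from the start of the antiviral helicase gene Znfx1, had nearly the same level under both treatments. It was at 1293, 972 and 1196 normalized counts in control cells, 13421, 14990 and 12881 under DON and 14132, 15123 and 13890 without Gln, which are 11.9-fold and 12.7-fold. Znfx1, which overlaps it by 82 bases on the other strand, was not called in either comparison with control (log2 -0.03 and 0.21, adjusted p = 0.805 and 0.124, limma). The use of strand in counting is not given in the sources used here, so reads in such overlaps could belong to either gene.

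Gas5 (growth arrest-specific 5) was at 2531, 2001 and 2587 normalized counts in control cells, 18167, 19292 and 17943 under DON and 13180, 14082 and 13824 without Gln. Its folds of 7.78 and 5.90 were closer to each other than those of Snhg1. Zbtb37, a zinc finger gene that overlaps Gas5 by 428 bases on the other strand, was called higher under DON (log2 0.53 ± 0.16, adjusted p = 0.00955, limma), with libraries that overlapped those of the controls. Snhg5, host of the Snord50 pair, was at 884, 676 and 958 in control cells, at 7018, 7965 and 6323 under DON and at 3683, 3549 and 4289 without Gln. The folds of Snhg5 were 8.45 and 4.68.

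The smaller folds belonged to Snhg6, Snhg8 and Snhg15, and these had unlike orders of the treatments. Snhg6 was at 1064.5, 900 and 1127 normalized counts in control cells, 3563, 3873 and 3492 under DON and 4793, 5072 and 4854 without Gln (3.52-fold and 4.85-fold). Snhg15 was at 319, 260 and 320 in control cells, 833, 840 and 746 under DON and 2084, 1943 and 1812 without Gln (2.68-fold and 6.60-fold). Both were thus higher without Gln than under DON. Snhg8 was at 2297, 1660 and 1738.5 in control cells, 7936, 9113 and 8015 under DON and 2406, 2380 and 2401 without Gln. Its 4.41-fold higher level under DON stood against 1.30-fold without Gln (log2 0.37, interval 0.12 to 0.62), where the lowest Gln-free library was only just above the highest control library. Snhg8 and Snhg15 are the members just inside the choice: the smallest fold without Gln and the smallest under DON. Just outside it among the other noncoding hosts stood Snhg16 at 9.14-fold and 12.6-fold, so the choice did not follow a threshold of fold.

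**Figure D2:**
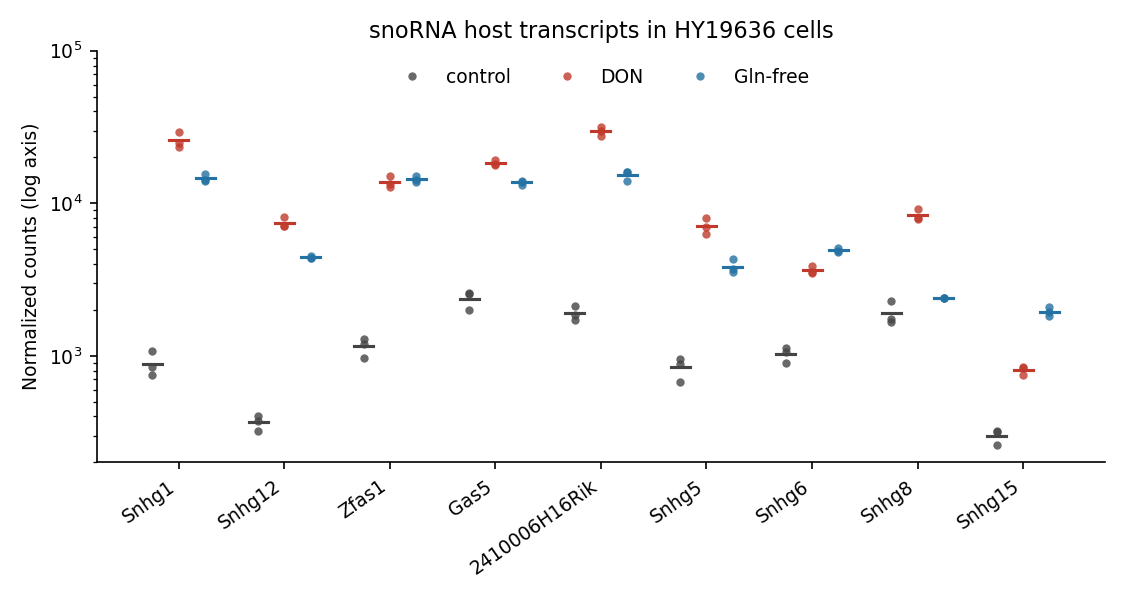
Normalized counts (log axis) of the 9 members with reads in control, DON and Gln-free HY19636 cells. Points are libraries and bars are group means (n = 3). Snhg8 is the member whose Gln-free libraries (2380 to 2406) lie close to control (1660 to 2297), and Snhg15 and Snhg6 are higher without Gln than under DON.

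Snhg3 could not be compared. It had 0 reads in all 9 culture libraries, which allows at most 3 reads per library, or 0.0623 to 0.119 reads scaled to a library of 1e6 reads (RPM), for counting error only. The protein-coding gene Rcc1, the nucleotide exchange factor of Ran, overlaps Snhg3 by 5592 bases on the same strand, and 13.7% of the exonic bases of Snhg3 (135 of 986) are exonic in Rcc1 too. Rcc1 itself was at a mean of 2751 normalized counts under DON and 2719 without Gln (log2 0.21 and 0.23 over control, adjusted p = 0.0502 and 0.0498, limma). Whether reads of Snhg3 were set aside or given to Rcc1 in the authors' counting was not tested.

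Per length, the order of the members changed with treatment. Levels are RPKM (RPM divided by the gene length in kilobases), with the lengths of the authors' FPKM table. In control cells 2410006H16Rik was highest (127 ± 9.8 RPKM, SD, n = 3), followed by Snhg8 (68.7 ± 11.6), Snhg6 (39.2 ± 5.8), Gas5 (28.8 ± 4.7) and Snhg5 (26.0 ± 5.4), the last pair overlapping. Zfas1 (15.5 ± 2.4), Snhg15 (13.8 ± 2.0), Snhg12 (12.1 ± 1.8) and Snhg1 (10.1 ± 2.4) closed the order, each overlapping its neighbor. With these lengths Snhg1 had the lowest mean in control cells and was among the 3 highest under DON, where it overlapped Snhg8 and Snhg12.

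Under DON 2410006H16Rik reached 2179 ± 147 RPKM and stood apart. Snhg8 (332 ± 25), Snhg1 (322 ± 37) and Snhg12 (271 ± 19) followed, and each overlapped the next. Gas5 (245 ± 8.4), Snhg5 (240 ± 26) and Zfas1 (203 ± 15) formed a second run of overlapping neighbors, above Snhg6 (151 ± 7.7) and Snhg15 (40.5 ± 2.4). Without Gln, 2410006H16Rik (1127 ± 95) was followed by Zfas1 (211 ± 8.8) and Snhg6 (203 ± 6.1), which overlapped. Snhg1 (182 ± 9.7) and Gas5 (181 ± 6.9) overlapped as well, and Snhg12 (161 ± 2.5) and Snhg5 (129 ± 14) stood lower and apart. Snhg15 (97.5 ± 6.1) and Snhg8 (94.0 to 96.1) were lowest and overlapped. With the lengths of all GENCODE exons, which are longer than in the table for 8 of the 9 members it holds, 2410006H16Rik stayed first in all 5 groups and ranks below it moved. The lowest measured member in control cells was then Snhg12 (4.72 ± 0.71 RPKM), under Snhg15 (6.83 ± 0.97) and Snhg1 (9.28 ± 2.2). Without Gln, Snhg15 was then lowest (48.4 ± 3.0 RPKM), below Snhg8, and Snhg1 (166 ± 8.9) and Zfas1 (166 ± 6.9) followed 2410006H16Rik.

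The size of the response was compared directly between the treatments. The 3 DON and 3 Gln-free libraries are the same ones that served in the choice against control, but their difference was not used in it. Of the 9 members, 6 were called higher under DON and 2 lower (limma, adjusted p-value under 0.05), and the same 6 and 2 did not overlap between the groups. Over all 13383 genes tested 33.8% were called higher and 35% lower, and 35.7% and 36.6% did not overlap in these directions.

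Snhg8 differed most, at 3.48-fold higher under DON (log2 1.80, interval 1.66 to 1.93, adjusted p = 1.61e-11). 2410006H16Rik (1.93-fold, adjusted p = 1.61e-08), Snhg5 (1.85-fold, adjusted p = 3.31e-07), Snhg1 (1.76-fold, adjusted p = 2.18e-07) and Snhg12 (1.68-fold, adjusted p = 6.13e-08) lay within overlapping intervals of 1.53-fold to 2.13-fold. Gas5 was 1.35-fold higher under DON (interval 1.25 to 1.46, adjusted p = 4.53e-06). Snhg15 was lower under DON, at 0.415 of its Gln-free level (log2 -1.27, interval -1.44 to -1.10, adjusted p = 4.51e-09), and so was Snhg6, at 0.742 (interval 0.679 to 0.811, adjusted p = 1.47e-05). For Zfas1 the ratio was 0.956 (interval 0.871 to 1.05, adjusted p = 0.366). Its groups overlapped, and a difference larger than these bounds was not seen. A single-value exact permutation test of 3 against 3 cannot go below 0.1, which the 8 members that did not overlap reached.

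**Figure D3:**
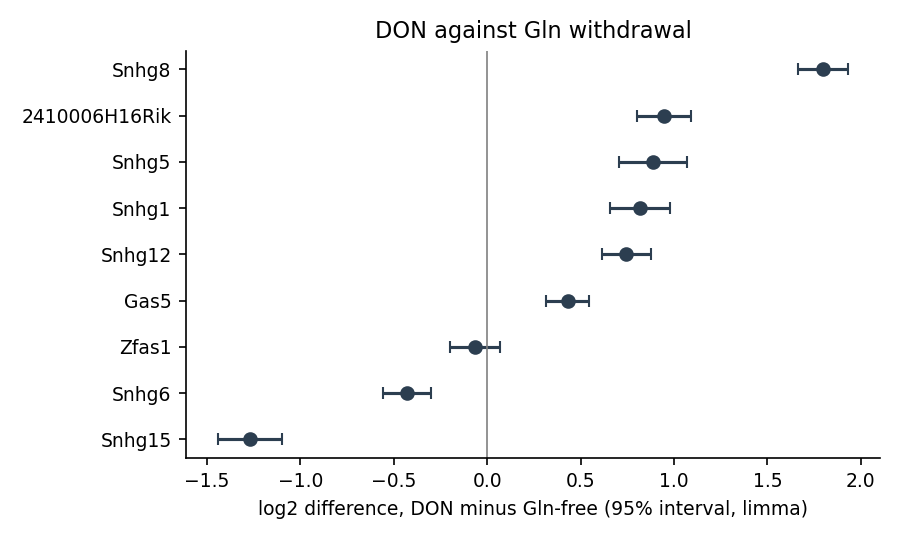
Log2 difference of each member between DON and Gln-free cells (points) with 95% limma intervals (bars), n = 3 per group. Values right of 0 are higher under DON. Snhg8 is farthest right at 1.80, the interval of Zfas1 spans 0, and Snhg6 and Snhg15 lie left of 0.

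The other known hosts were described from lists. Beside these counts, 33.3% of all genes tested were called higher and 34.7% lower under DON, and 34.5% and 34.9% without Gln. Of 13 further noncoding hosts, 8 passed the filter on low values (a mean of at least 10 normalized counts). Under DON 6 were called higher and 1 lower (median log2 0.92), and without Gln 3 higher and 1 lower (0.26). Snhg16 was the highest in both (log2 3.19 ± 0.17 and 3.65 ± 0.18, adjusted p = 1.05e-09 and 2.80e-09). Snhg18 was the lowest in both (-1.37 ± 0.32 and -2.09 ± 0.33, adjusted p = 0.00159 and 8.61e-05). A noncoding host was thus not always higher.

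Among 16 protein-coding hosts outside the ribosomal proteins, 8 were called higher and 3 lower under DON (median log2 0.20), and 11 higher and 4 lower without Gln (0.41). Taf1d, a subunit of the RNA polymerase I selectivity factor and host of many C/D snoRNAs, was highest in both (1.94 ± 0.17 and 2.17 ± 0.18). Between the treatments, Hspa8, the constitutive Hsc70 chaperone, was 3.05-fold higher under DON and Nop58, a core C/D snoRNP protein, was at 0.351 of its Gln-free level (adjusted p = 8.48e-11 and 5.92e-11). Among 24 ribosomal protein genes that host snoRNAs, 17 were called higher and 0 lower under DON. Their median log2 change was 0.40 under DON, and -0.01 without Gln with 6 higher and 6 lower. In the direct comparison 21 of 24 were called higher under DON and 1, Rpl4, lower, against 33.8% and 35% of all genes tested.

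**Figure D4:**
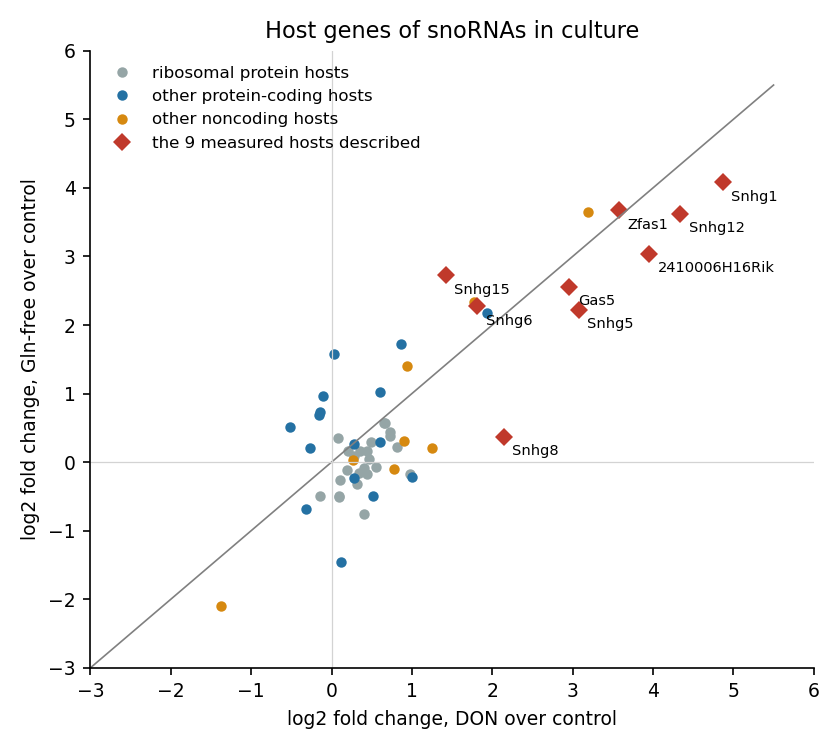
Log2 fold change over control under DON (x axis) and without Gln (y axis) for the 9 members and the 3 lists of other hosts, one point per gene, with the line of equal change. Both axes share the 3 control libraries. Most ribosomal protein hosts lie between -1 and 1 on both axes, and Snhg8 is the member farthest below the line.

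The decay pathway and the snoRNP machinery were described in the same way. Over all genes tested, 33.3% were called higher and 34.7% lower under DON, and 34.5% and 34.9% without Gln. Of 18 nonsense-mediated decay factors, 6 were called higher and 4 lower under DON (median log2 0.10), and 10 higher and 0 lower without Gln (0.34). The highest without Gln was Upf2, a core factor (1.61 ± 0.17, adjusted p = 3.60e-06), and the highest under DON was Pnrc2, which links decay to decapping (1.00 ± 0.11). Of 7 messenger RNAs known to be kept low by this decay, 5 were called higher and 2 lower under DON and 6 higher and 0 lower without Gln, led in both by Ddit3, the stress transcription factor CHOP (4.64 ± 0.10 and 4.48 ± 0.09). Ddit3 is also a known target of the transcriptional response to amino acid loss. Of 17 tested snoRNP proteins and assembly factors, 6 were called higher and 4 lower under DON, and 9 higher and 2 lower without Gln. Under DON the decay factors and the snoRNP factors called higher were thus near the share of all genes. These counts are not read as a response of either list. Fbl, the methyltransferase of C/D snoRNPs, was at -0.42 ± 0.09 without Gln, the lowest of the list.

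The snoRNAs themselves were scarcely seen in these counts. Of 33 enclosed snoRNA genes with a row in the count tables, 28 had no read in any of the 15 libraries. The 5 with reads were Snord49a, Snord49b, Snord65, Snord87 and Gm23201. Apart from Snora73b, those without a read overlap an annotated exon of their host. Whether reads shared by a host exon and a snoRNA were set aside or given to the host was not tested. Snord49a had 20, 10 and 37 reads in control cells, 28, 30 and 30 under DON and 32, 8 and 24 without Gln. In RPM this was 0.367 to 0.768 in control cells, 0.847 to 1.11 under DON and 0.282 to 1.14 without Gln, so the DON libraries lay above the control libraries and the Gln-free libraries overlapped both. For the other snoRNAs of the same host the DON and control libraries overlapped. Snord49b was at 0.184 to 0.498 RPM in control cells and 0.430 to 0.706 under DON, and Snord65 at 0.0738 to 0.294 and 0.169 to 0.555. Gm23201, inside Zfas1, had the lower mean under DON (0.203 ± 0.11 RPM, with 0.370 ± 0.23 in control cells), and its libraries overlapped too. Each of the 5 had fewer than 40 reads in every library, and reads of a snoRNA and of unspliced host RNA were not told apart. The libraries' selection step is not given in the sources used here, and how far short snoRNAs could be captured was not tested.

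The genes whose levels over the 9 culture libraries were most like the mean of the members (Pearson r of log2 values, members scaled first) were Atp6v1d (r = 0.998), a subunit of the vacuolar proton pump, C9orf72 (0.998), Cyb5r1 (0.996), Snai2 (0.996) and Nupr1 (0.996). The 9 points fall into 3 groups and share their treatments, so such values are high for any gene with the same order of group means. Snai2, a transcription factor of epithelial to mesenchymal transition, was 8.97-fold and 7.04-fold above control. The members' own r with that mean was 0.953 to 1.000 for Snhg1, Snhg12, Zfas1, Gas5, 2410006H16Rik, Snhg5 and Snhg6, and 0.718 for Snhg8 and 0.816 for Snhg15.

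In tumors the question was whether DRP-104 was accompanied by the same high levels. The tumors were collected 21 days after transplantation, after 2 cycles of dosing, and the cultures after 24 h. Drug, exposure, time and setting thus all differ from culture, and their parts cannot be told apart. None of the 9 members was called (limma, 0 of 9), as were 0% of all 15454 genes higher and 0% lower. Without adjustment 775 genes and 1 member (Gas5) had a p-value under 0.05. On recovered reads edgeR called 0 genes and DESeq2 called 56, of which 0 were members. A fold above 1 was seen for 8 members and below 1 for Snhg12, with a median of 1.15-fold (log2 0.20, against -0.01 over all genes).

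Gas5 was at 3760, 2960 and 3389 normalized counts in DRP-104 tumors and at 2582, 2124 and 2667 in vehicle tumors. It was the one tested member whose tumors did not overlap, as did 4.83% of all genes in that direction. The fold was 1.37 (log2 0.46 ± 0.15 SE, interval 0.10 to 0.81, adjusted p = 0.916, and exact permutation p = 0.1, the smallest that 3 against 3 allows). In the authors' FPKM table, whose columns are known by group only, Gas5 was at 59.1 ± 18.1 FPKM in DRP-104 tumors and 58.2 ± 5.1 in vehicle tumors (SD, n = 3), with exact permutation p = 1. The higher level was thus seen in 1 of the 2 tables.

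Snhg15 was at 227, 277 and 330 normalized counts in DRP-104 tumors and 206, 165 and 232 in vehicle tumors (1.38-fold, interval 0.942 to 2.02, adjusted p = 0.916). Snhg1, the strongest responder in culture, was at 1418, 1110 and 1233 against 1052, 821 and 1408. The fold of Snhg1 was 1.17 (interval 0.832 to 1.64, limma adjusted p = 0.925). Its fold under DON in culture comes from a contrast used in choosing the members, so no bound is drawn from it. The tumor and culture folds come from different samples and were not tested against each other.

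Snhg12 was at 161, 330 and 354 in DRP-104 tumors and 306, 236 and 354 in vehicle tumors (0.905-fold). Without DRP-104 tumor 1 its log2 difference changed from -0.14 to 0.21. 2410006H16Rik was at 1067, 1047 and 1303 against 923, 1028 and 1156 (1.10-fold, interval 0.854 to 1.41). Zfas1 was at 1330, 771 and 1105 against 776, 930 and 1042 and was 1.15-fold higher. For Snhg5, Snhg6 and Snhg8 the folds were 1.13, 1.15 and 1.18, and their tumors overlapped. No upper bound of the 9 members exceeded 2.02-fold.

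DRP-104 tumor 1 had the highest of the 6 values for 6 members: Snhg1, Zfas1, Gas5, Snhg5, Snhg6 and Snhg8. In Snhg6 it stood at 1697 normalized counts, with 833 to 1110 in the other 5 tumors. Without this tumor Snhg6 and Snhg8 changed sign (log2 -0.12 and -0.0060), and without vehicle tumor 1 so did Snhg5 (-0.082). Snhg3 had 0, 2 and 1 reads in DRP-104 tumors and 5, 4 and 9 in vehicle tumors, too few for the filter, and is listed at 0 in all 6 FPKM columns.

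**Figure D5:**
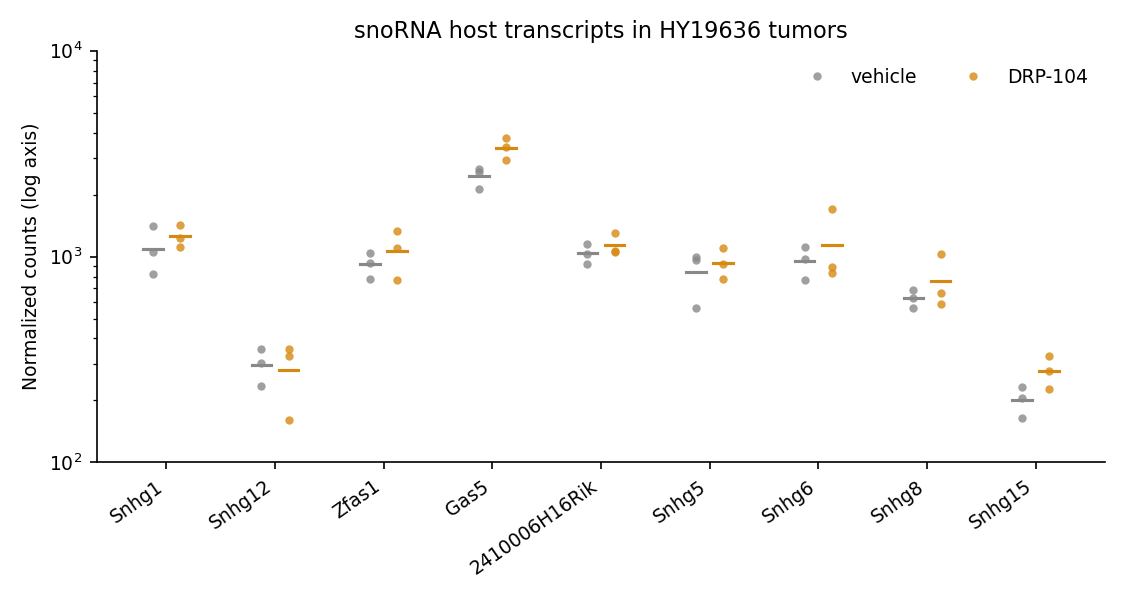
Normalized counts (log axis) of the 9 members with enough reads in vehicle and DRP-104 tumors. Points are tumors and bars are group means (n = 3). Gas5 is the member whose groups do not overlap, and the highest Snhg6 value is DRP-104 tumor 1 at 1697.

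The tumors differed in their makeup, and its part in these values was not tested. The 6 fibroblast markers summed to 18284 to 31802 normalized counts in DRP-104 tumors and 38485 to 81811 in vehicle tumors, and the 6 leukocyte markers to 5194 to 29593 and 5476 to 9705. The 7 T cell markers summed to 1306 in DRP-104 tumor 3 and to 42 to 98 in the other 5, with Cd8a and Cd3e at 0 in DRP-104 tumors 1 and 2. The 7 acinar markers reached 2884 in vehicle tumor 3 and were 157 to 1061 elsewhere. The 6 epithelial markers, which mark the PDAC cells, summed to 130197 to 173678 in DRP-104 tumors and 116747 to 161328 in vehicle tumors. The 3 endothelial markers summed to 962 to 1367 and 1619 to 1841, and the 6 proliferation genes to 10304 to 11062 and 10501 to 12186. In cultured PDAC cells the 6 epithelial markers summed to 393347 to 511169 in control and 116931 to 125209 under DON. Their sum in tumors therefore need not follow the share of PDAC cells.

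Per length, the tumor levels were nearer to control cells than to treated cells. In 9 of 9 members the highest of the 6 tumors lay below the lowest of the 6 treated culture libraries. The members were chosen for high levels in treated culture, so this count is a description only. The share of all genes with this order was not computed. For Snhg1 the tumors ranged from 15.7 to 27.4 RPKM, with 176 RPKM in the lowest treated culture library, and for Snhg6 from 52.3 to 105 RPKM, with 146. Of the 9 members, 5 were higher in every vehicle tumor than in every control library. They ranged from 1.37 times for Zfas1 to 2.12 times for Snhg1, and Snhg8 was lower at 0.572 times. How many of all genes separate in this way was not computed, so the count is not read as particular to the hosts. Tumors hold other cell types as well, so these levels are set side by side with no test. The members' share of reads was 0.0450% ± 0.0046 in vehicle and 0.0539% ± 0.0062 in DRP-104 tumors.

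The lists gave no call in tumors either. The median log2 difference was 0.08 for the other noncoding hosts (11 tested), 0.07 for the protein-coding hosts, 0.16 for the ribosomal protein hosts, -0.06 for the decay factors, 0.18 for the messenger RNAs known to be kept low by decay and -0.06 for the snoRNP factors, with 0 called in each. Over the 6 tumors the genes most like the mean of the members included Dclre1b (r = 0.987), Rps15 (0.985), which encodes a ribosomal protein, Hspb11 (0.958) and 2810013P06Rik (0.957). None of these 4 was among the 5 most like in culture.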

How the data were processed

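RNA from 15 samples in 5 groups of 3 was used. Novogene made the libraries for the authors, aligned reads with HISAT2 and ran DESeq2. The submitters' processing notes also list CASAVA, STAR 2.5 and GRCm39, whereas coordinates in the FPKM table match GRCm38. The counting tool, its use of strand and the annotation are not given in the sources used here. The deposited signal is the gene count divided by 1 size factor per sample, estimated within each of 3 tables. The deposited FPKM table holds tumors only, with columns known by group and not by tumor. Columns of fold changes and p-values in the tables were not used.

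Each value was turned back into reads with the size factor of its library (tolerance 0.0051), and at least 99.96% of values above 0 came out whole. Among values of 1 to 20 reads, 69.6 to 72.7% were even in culture and 41.9 to 46.5% in tumors, so culture reads may not be independent fragments and count models would then overstate their precision. Because the main values are normalized, limma 3.58.1 in R 4.3.3 was fitted to log2(value + 1) of genes with a mean of at least 10, with trend and Benjamini-Hochberg adjustment. Fold changes are on that scale. For DON minus Gln-free, recovered reads of the 9 culture libraries were rescaled jointly. edgeR 4.0.16 and DESeq2 1.42.0 on recovered reads were alternatives. The fits were tested on simulated data. RPKM used the lengths in the FPKM table, and GENCODE M21 exons for Snhg8, which has no row there. Zfas1 and Snhg15 were matched to it by Ensembl identifier.

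Columns of control cells carry a heading shared with vehicle tumors and were placed by their table, so they carry no replicate number. Nothing says whether replicates were separate cultures, so p-values measure the spread between these samples. Replicate numbers were not used to pair samples in the main fits. Members and lists were chosen with earlier results of these data known. Named genes were the 10 members, the highest and lowest of each list, overlapping or divergent neighbors, and the 5 most like by correlation among genes with a mean of at least 100. Some items are not reported here. Intervals and the limit for a count of 0 are at 95% and 3 counts, and the latter covers counting error only.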

Additional observations from a re-analysis of the deposited data

How the results depend on the processing

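The 9 members kept their direction over control in all 14 alternatives run (pseudocounts of 0.5 and 5, no filter and a mean of at least 50, edgeR, DESeq2, quantile normalization, each library left out, and the joint culture scale, which like the GENCODE lengths was chosen after seeing the data). The 8 calls between DON and Gln-free cells held in all 14 alternatives, and Zfas1 was never called (adjusted p from 0.0725 to 0.803). In tumors no member was called in any alternative, and over all genes DESeq2 called 56 where limma called 0. With the FPKM table Snhg1, Zfas1, Gas5, 2410006H16Rik and Snhg6 changed sign, to -0.24, -0.080, -0.026, -0.019 and -0.12 (log2). Leaving out DRP-104 tumor 1 turned Snhg12 to 0.21, Snhg6 to -0.12 and Snhg8 to -0.0060, and leaving out vehicle tumor 1 turned Snhg5 to -0.082. The cause was not tested. Over left-out tumors Snhg12 ranged from -0.35 to 0.21, Snhg6 from -0.12 to 0.39, Snhg8 from -0.0060 to 0.40 and Snhg5 from -0.082 to 0.33, and Gas5 from 0.35 to 0.55.

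Same-numbered DON and Gln-free libraries deviated with correlations of -0.028, 0.00077 and 0.083, and tumors with -0.27, 0.038 and -0.36. Only DON library 3 went best with its own number. Such values cannot show whether same-numbered samples were handled together. With a replicate block, 9237 genes instead of 9207 were called between DON and Gln-free cells and 0 in tumors. No block was possible against control cells, whose columns carry no number. With 3 tumors per group the members' intervals reached up to 2.02-fold, and differences within them were not detectable. Values are shares of each library, so a change of total RNA per cell would not show.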

Other observations

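Long noncoding RNAs not known as snoRNA hosts were described as a list. Of 5 tested under DON, 4 were called higher and 0 lower, and of 4 tested without Gln, 3 were called higher and 1 lower (limma). Over all genes tested, 33.3% were called higher and 34.7% lower under DON, and 34.5% and 34.9% without Gln. Malat1, a nuclear-retained RNA of speckles, was 6.77-fold above control under DON and 1.41-fold without Gln, and 4.90-fold higher under DON than without Gln (log2 2.29 ± 0.06, adjusted p = 1.42e-12). Neat1, the scaffold of paraspeckles, was higher under DON (log2 1.94 ± 0.15, adjusted p = 7.88e-08) and lower without Gln (-0.67 ± 0.14, adjusted p = 0.00114). Tug1 was higher in both (1.01 ± 0.17 and 1.43 ± 0.18), with more without Gln (log2 -0.39 ± 0.07, DON minus Gln-free, adjusted p = 0.000290). In tumors 0 of 8 tested were called, with a median log2 difference of 0.45 and the highest value, 1.71 ± 0.60, for Kcnq1ot1 (adjusted p = 0.916).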
